A study of Mus musculus with 4 samples.

Results

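The genes described here are the 3 Nanos genes (Nanos1, Nanos2, Nanos3) and 6 other genes for RNA-binding proteins that control translation or mRNA decay in germ cells: Pum2, Dazl, Dnd1, Elavl2, Lin28a and Lin28b. They were chosen by symbol from the deposited gene table, in which 9 of the 55421 genes carried one of these names. All 9 genes were counted in enough libraries to pass the filter on low counts, which 20232 genes of the table passed. Nanos2 passed only through the Veh libraries, where it was high, so its fitted change and its place in the counts of called genes are a description.

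RNA-seq was performed on primary spermatogonia cultures (spermatogonial stem cell or SSC cultures) of the CD1 mouse background, made from testes of pups aged 6 days. Veh cells, the vehicle controls, were kept in complete SSC medium. The study's recipe dissolves RA in DMSO, while its figure legend for this background calls the control normal medium. NRRA cells received nutrient restriction (NR) medium, in which a salt solution without amino acids replaced most of the complete medium, together with retinoic acid (RA), for 2 days. There were 2 libraries in each group. All 4 libraries carry no engineered allele in the labels, and the labels list N2, bFGF and GDNF for all of them. The labels and the study's medium recipe differ in the GDNF concentration, and replacing most of the NRRA medium with salt solution also diluted these supplements, so an effect of less growth factor cannot be told apart from the rest of the treatment. The germ cells grew on mouse embryonic fibroblast (MEF) feeder cells, so the RNA of both cell types was measured together. A lower level in such bulk RNA can mean fewer cells of a type or less RNA per cell, and these cannot be told apart.

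Spermatogonia keep many mRNAs under control after transcription. NANOS proteins are zinc finger proteins that join PUM proteins on target mRNAs and recruit the CCR4-NOT complex, which shortens the poly(A) tail. NANOS2 is known to hold spermatogonia in the undifferentiated state, NANOS3 to keep primordial germ cells alive, DAZL to promote translation of germ cell mRNAs, and DND1 to act with NANOS proteins. LIN28A and LIN28B block the maturation of let-7 microRNAs, which repress mRNAs of growth and stem cell genes.

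The sequences before the RefSeq starts of the 3 Nanos genes are shown because the leading Nanos transcript differed between the groups, and the stretches differ in CpG content. They are RefSeq windows of build GRCm38.p6 (250 bases before to 50 after the RefSeq start), trimmed to the bases that no exon covers, 5′ to 3′ on the gene's strand, with each CpG in capitals.

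Nanos1: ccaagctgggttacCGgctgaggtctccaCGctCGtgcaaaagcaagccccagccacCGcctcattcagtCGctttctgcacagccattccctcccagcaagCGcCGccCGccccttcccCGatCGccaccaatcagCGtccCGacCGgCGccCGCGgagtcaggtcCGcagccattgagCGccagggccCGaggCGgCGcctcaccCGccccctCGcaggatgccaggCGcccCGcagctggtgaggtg
Nanos2: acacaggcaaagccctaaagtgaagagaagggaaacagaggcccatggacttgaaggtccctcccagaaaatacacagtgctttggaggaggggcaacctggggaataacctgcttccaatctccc
Nanos3: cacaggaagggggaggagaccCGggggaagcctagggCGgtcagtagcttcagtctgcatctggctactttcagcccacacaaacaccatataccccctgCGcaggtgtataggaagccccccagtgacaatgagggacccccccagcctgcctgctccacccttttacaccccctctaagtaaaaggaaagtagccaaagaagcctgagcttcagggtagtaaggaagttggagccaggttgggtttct

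The Nanos1 stretch, chr19:60755737-60755986 on the plus strand, held 25 CpG in 250 bases. The Nanos2 stretch, chr7:18987274-18987399 on the plus strand, held 0 CpG in 126 bases. The Nanos3 stretch, chr8:84176553-84176802 on the minus strand, held 3 CpG in 250 bases and lies inside the GENCODE gene, between exons of a longer transcript that starts further upstream. Over whole windows the CpG count was 34 for Nanos1, 0 for Nanos2 and 3 for Nanos3, against a median of 7 and quartiles of 3 and 20 over 32851 windows of 27025 genes. Windows were read for 8 of the 9 genes, 15 windows in all. Dazl had 28 CpG, the Pum2 windows 35 to 44, the Elavl2 windows 10 to 27, Lin28a 10 and Lin28b 8. Nanos1, Dazl, Pum2 and some windows of Elavl2 were thus above the upper quartile, Nanos2 was below the lower one, and Nanos3 lay at it.

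The letters AGGTCA (either strand), a half-site that retinoic acid receptors can bind, occurred in 16.3% of all windows and, of the genes described, in that of Nanos2. The letters TATAAA (either strand) occurred in 13.6% of all windows and again in that of Nanos2. Both matches lay past the stretch printed above, in bases that GENCODE counts as exon. The letters GGGCGG (either strand), a GC box, occurred in 35.7% of all windows and in windows of Nanos1, Nanos3, Pum2, Elavl2 and Lin28a. A match of letters is a description of the window and was not tested as a site.

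The depth of the libraries was close, with totals of 28022265 to 31604769 counts. CPM values below are counts scaled to the library size after TMM normalization, and a floor of 3 counts corresponded to 0.0921 to 0.111 CPM. Stra8, a gene induced by RA, was the check on the RA part of the labels. It had 261 and 300 counts in the Veh libraries, compared with 60702 and 55775 in the NRRA libraries. These were 9.85 ± 0.325 and 1858 ± 7.88 CPM (SD, n = 2 each), so the libraries matched the RA part of their labels. The nutrient restriction part was not checked with a gene. The summed level of 10 germ cell markers was 1770 to 1773 CPM in Veh and 1960 to 1976 CPM in NRRA, with 5 markers higher, 3 lower and none at 0. That of 16 fibroblast feeder markers was 11428 to 11541 CPM in Veh and 8475 to 8690 CPM in NRRA, with 2 higher, 13 lower and none at 0. The Sertoli cell markers summed to 35.4 to 39.5 CPM in Veh and 16.7 to 17.8 CPM in NRRA, mostly Sox9, with Amh and Rhox5 at or under the floor and Fshr at 0. The Leydig cell markers summed to between 7.56 and 9.58 CPM, mostly Star, with Hsd3b1 and Lhcgr at or under the floor. The part of these shifts in the results below was not tested, and values relative to the germ cell markers are given at the end of the gene results.

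The comparison of NRRA with Veh asks whether these regulators change as spermatogonia receive the signal for differentiation and meiosis. No library received RA or NR medium alone, so the effects of RA, of nutrient restriction and of their combination cannot be told apart here. Nanos2 transcripts fell to the detection floor in NRRA and Nanos3 transcripts fell 38.9-fold, Elavl2 fell to 0.611 times its Veh level, Nanos1 and Lin28b rose to 1.45 and 1.26 times, and Dazl, Pum2, Dnd1 and Lin28a moved by less than 1.2-fold. In edgeR's quasi-likelihood test, adjusted over all genes tested, 4 of the 9 genes were higher in NRRA and 5 were lower, Nanos2 included. The background was large: 56.4% of all tested genes passed in either direction, 27.9% higher (5654 genes) and 28.4% lower (5752 genes). With library size in place of TMM, the split over all genes was 6962 higher and 4593 lower. A change of at least 2-fold was found for 2 of the 9 genes, Nanos2 and Nanos3, and for 13.3% of all tested genes. The NRRA and Veh libraries did not overlap for any of the 9 genes, as was the case for 76.7% of all tested genes. The median log2 fold change was -0.09 for the 9 genes and 0.00029 for all tested genes. The median of the 9 genes was the value of Dnd1, which was -0.0039 with library size in place of TMM. The study labelled Nanos2 and Nanos3 in its own plot of these libraries, so their direction here is not independent evidence.

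**Figure D1:**
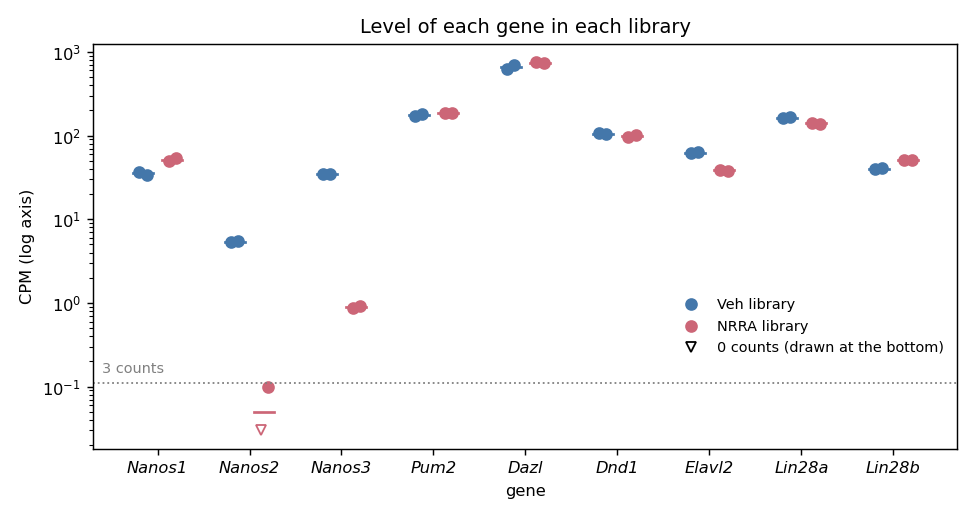
Level of each of the 9 genes in each library, in CPM on a log axis, with short lines at the group means (n = 2 libraries each) and a dotted line at the highest CPM that 3 counts represent. Nanos2 and Nanos3 are the genes whose NRRA libraries sit far below the Veh libraries, and the open triangle marks the NRRA library with 0 counts of Nanos2.

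Nanos2 (ENSMUSG00000051965, chr7:18987400-18988962, plus strand, a gene of 1 exon) had 145 and 163 counts in the Veh libraries, compared with 0 and 3 counts in the NRRA libraries. Both NRRA libraries were at or under the floor, and both Veh libraries were far above it, at 5.35 and 5.48 CPM. The summed counts, 308 against 3, gave a ratio of Veh to NRRA of 113 after library scaling, with an exact 95% interval of 38.4 to 552 that covers counting error only, since PCR copies were not told apart. The fitted log2 fold change was -6.70 ± 0.41 (SE). That value depends on the prior count and is no bound, and without NRRA replicate 2, whose count was 3, it was -10.34.

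An antisense gene, Gm45058, covers 49.0% of the exonic bases of Nanos2 on the opposite strand. It had 83 and 106 counts in Veh, against 0 and 2 in NRRA. The strand setting of the counting is not given in the sources used here, so reads of this pair cannot be assigned to either gene with certainty. The other bases of Nanos2 overlap no annotated exon.

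Nanos3 (ENSMUSG00000056155, chr8:84173731-84185217, minus strand) had 943 and 1042 counts in the Veh libraries and 28 counts in each NRRA library. In CPM, Veh reached 34.9 ± 0.178, against 0.895 ± 0.0497 in NRRA (SD, n = 2 each), so that Nanos3 remained above the floor in NRRA. Replicates were nearly equal, and both Veh libraries were far above both NRRA libraries. The level was 38.9-fold lower in NRRA (log2 fold change -5.28 ± 0.13, SE, edgeR adjusted p = 5.4e-22). Among the 20232 tested genes, Nanos3 ranked 26 from the lowest log2 fold change. No other annotated exon overlapped Nanos3, and no stretch of its longest transcript was near-identical to another gene. Its exonic bases outside that transcript were not searched.

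Nanos1 (ENSMUSG00000072437, chr19:60755987-60759914, plus strand, a gene of 1 exon), the member of the family that is also expressed in the nervous system, had 1008 and 1012 counts in Veh, against 1609 and 1616 in NRRA. Both NRRA libraries (49.4 and 53.7 CPM) were above both Veh libraries (37.2 and 34.0 CPM). It was the highest of the 9 genes in log2 fold change (0.53 ± 0.06, SE, edgeR adjusted p = 2.1e-08) and ranked 3299 from the highest of all tested genes.

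The 3 Nanos genes can be compared with each other only per length. Summed over the family, the level was 50.3 ± 0.316 CPM per kilobase of exon in Veh and 14.1 ± 0.868 in NRRA (SD, n = 2 each). In Veh, Nanos3 made up 75.1% of that sum, Nanos1 18.0% and Nanos2 6.89%. In NRRA, Nanos1 made up 92.9%, Nanos3 6.86% and Nanos2 0.216%. The leading Nanos transcript thus passed from Nanos3 to Nanos1, with library values of 74.5% and 75.7% for Nanos3 in Veh and 93.1% and 92.7% for Nanos1 in NRRA. With the longest transcript as the length, Nanos3 made up 79.2% in Veh and Nanos1 91.3% in NRRA.

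**Figure D2:**
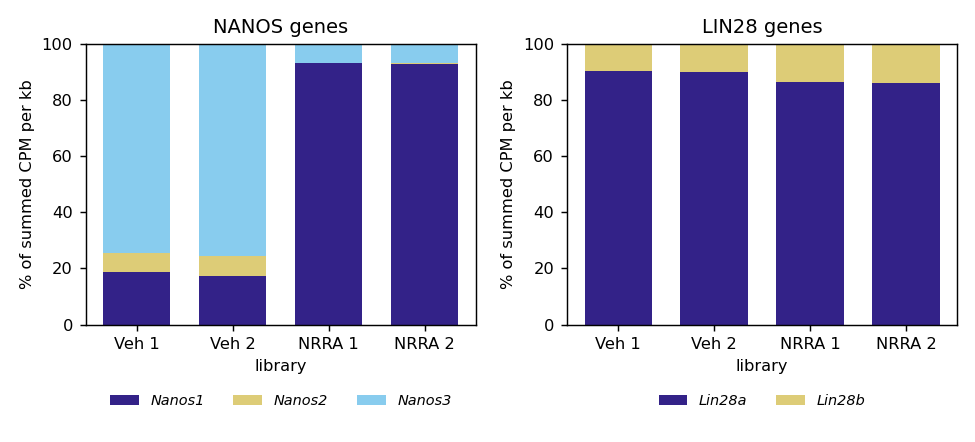
Share of each gene in the summed level per kilobase (CPM per kb, in percent) of the NANOS genes (left) and of the LIN28 genes (right) in each library. Nanos3 fills most of both Veh bars and Nanos1 most of both NRRA bars, and Lin28b takes 9.68% and 9.86% in Veh and 13.6% and 13.9% in NRRA.

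Pum2 (ENSMUSG00000020594, chr12:8674134-8752581, plus strand) encodes a PUF domain protein that binds the same mRNAs as NANOS proteins. Its libraries had 4651 and 5395 counts in Veh, against 6110 and 5603 in NRRA, or 171 and 181 against 188 and 186 CPM. The groups lay next to each other without overlap. The difference was 1.06-fold (log2 fold change 0.08 ± 0.03, SE, edgeR adjusted p = 0.032), and it was not called in DESeq2's Wald test (adjusted p = 0.11) or without Veh replicate 1 (log2 fold change 0.04, edgeR adjusted p = 0.35), NRRA replicate 1 or NRRA replicate 2. With library size in place of TMM it was 0.17 (edgeR adjusted p = 5.2e-05).

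Dazl (ENSMUSG00000010592, chr17:50279395-50293636, minus strand) was the most abundant of the 9 genes, with 16926 and 20834 counts in Veh, against 24391 and 21902 in NRRA. In CPM the Veh libraries were at 624 and 700 and the NRRA libraries at 749 and 728. All 4 libraries were thus high, and the Veh libraries differed from each other by more than Veh replicate 2 did from the NRRA libraries. The difference was 1.11-fold (log2 fold change 0.16 ± 0.05, SE, edgeR adjusted p = 0.045) and was not called in DESeq2's Wald test (adjusted p = 0.11). Leaving out each library in turn gave log2 fold changes from 0.08, without Veh replicate 1, to 0.24, without Veh replicate 2, and library size in place of TMM gave 0.25.

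Dnd1 (ENSMUSG00000044595, minus strand of chromosome 18) had 2871 and 3099 counts in Veh, against 3095 and 3066 in NRRA (CPM of 106 and 104, against a mean of 98.4 ± 4.82 in NRRA, SD, n = 2). NRRA replicate 2 was close to the Veh libraries. The log2 fold change was -0.09 ± 0.04 (SE, edgeR adjusted p = 0.049), and it was not called in DESeq2 (adjusted p = 0.18) or without NRRA replicate 1 (-0.04, edgeR adjusted p = 0.58) or Veh replicate 1. With library size in place of TMM it was -0.0039. A stretch of 16.8% of its longest transcript is near-identical to the pseudogene Dnd1-ps, which had 1 count in all 4 libraries together, and 5.80% of its exonic bases overlap Wdr55 on the opposite strand.

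Elavl2 (ENSMUSG00000008489, chr4:91250763-91400785, minus strand), a protein of the Hu family that binds AU-rich elements, had 1657 and 1906 counts in Veh, against 1267 and 1132 in NRRA. In CPM these were 61.1 and 64.1 against 38.9 and 37.6, so the replicates lay close together and the groups far apart. The log2 fold change was -0.71 ± 0.05 (SE, edgeR adjusted p = 8.8e-12). The count ratio of Elavl2 to Elavl1, the family member found in most cells, was 0.390 and 0.392 in Veh, against 0.275 and 0.268 in NRRA.

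Lin28a (ENSMUSG00000050966, chr4:134003330-134018841, minus strand) had 4397 and 4927 counts in Veh, against 4644 and 4192 in NRRA, which were 162 and 166 against 143 and 139 CPM. It was lower in NRRA (log2 fold change -0.22 ± 0.03, SE, edgeR adjusted p = 2.6e-06), by -0.13 with library size in place of TMM (edgeR adjusted p = 0.0016). Lin28b (ENSMUSG00000063804, chr10:45376620-45486395, minus strand) moved the other way, from 1069 and 1222 counts to 1652 and 1539, or from 39.4 and 41.1 to 50.7 and 51.1 CPM (log2 fold change 0.34 ± 0.05, SE, edgeR adjusted p = 5.8e-06). For both genes the replicates lay close together and the groups did not overlap. The count ratio of Lin28b to Lin28a was 0.243 and 0.248 in Veh, against 0.356 and 0.367 in NRRA. Per kilobase, Lin28a still made up 86.3% of the LIN28 sum in NRRA, against 90.2% in Veh, and the sum was 45.4 ± 0.743 CPM per kilobase in Veh and 40.9 ± 0.561 in NRRA (SD, n = 2 each). An exon of Gm13061 on the opposite strand overlaps 5.86% of the exonic bases of Lin28a.

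**Figure D3:**
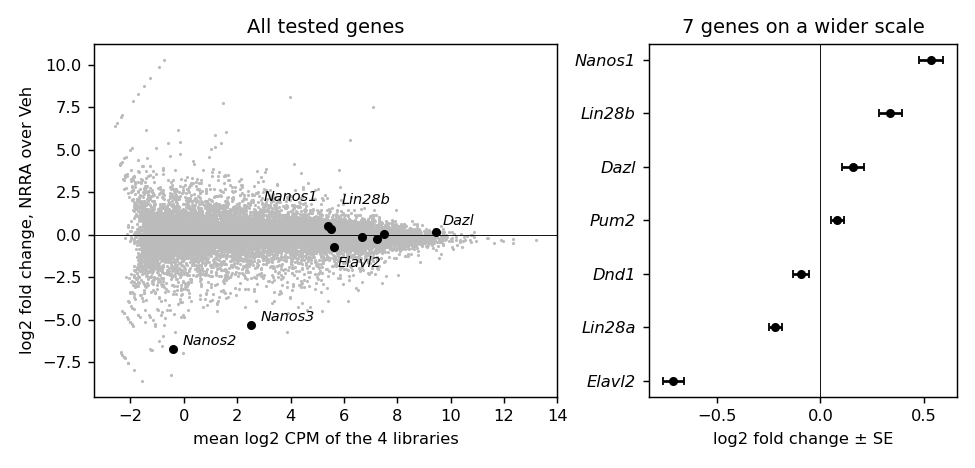
Left, log2 fold change (NRRA over Veh) against mean log2 CPM of the 4 libraries for all 20232 tested genes (grey) and the 9 genes described (black). Right, log2 fold change with its SE for the 7 genes other than Nanos2 and Nanos3, from -0.71 for Elavl2 to 0.53 for Nanos1.

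Ordered by level per kilobase of exon, the Veh libraries had Dazl first (173 ± 14.1 CPM per kilobase), then Dnd1 (43.5 ± 0.499), Lin28a (41.0 ± 0.614), Nanos3 (37.8 ± 0.192), Pum2 (24.3 ± 0.958), Nanos1 (9.06 ± 0.568), Elavl2 (7.53 ± 0.252), Lin28b (4.44 ± 0.129) and Nanos2 (3.46 ± 0.0597; SD, n = 2 libraries throughout). In NRRA the order was Dazl (193 ± 3.96 CPM per kilobase), Dnd1 (40.8 ± 2.00), Lin28a (35.3 ± 0.592), Pum2 (25.7 ± 0.145), Nanos1 (13.1 ± 0.770), Lin28b (5.62 ± 0.0310), Elavl2 (4.60 ± 0.111), Nanos3 (0.969 ± 0.0538) and Nanos2 (0.0319 ± 0.0451). Each gene's libraries lay apart from those of the next gene in the order, but there were only 2 libraries a group and the order was not tested. Nanos3 thus dropped from place 4 to place 8, and Lin28b rose from place 8 to place 6, above Elavl2. The order depends on the length used. With the longest transcript, Nanos3 stood at place 3 in Veh (47.8 ± 0.243 CPM per kilobase), above Lin28a (46.7 ± 0.700), and Elavl2 stood at place 6, above Nanos1, while the NRRA order was the same. Among all tested genes ranked per kilobase, Dazl stood at percentile 99.3 in Veh and 99.5 in NRRA, and Nanos3 at 92.8 in Veh and 26.7 in NRRA.

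Counts were also taken relative to each of the 10 germ cell markers within a library, because these markers themselves moved in both directions, from -0.45 for Tdrd1 to 0.66 for Tex15 in log2 fold change. Nanos3 and Elavl2 were lower in NRRA relative to 10 of the 10 markers, with log2 changes of the ratio from -5.94 to -4.84 for Nanos3 and from -1.37 to -0.26 for Elavl2. Nanos1 was higher relative to 9 markers and lower relative to Tex15 (-0.12), and Lin28b was higher relative to 8 and lower relative to 2, with a lowest value of -0.32. Lin28a was lower relative to 9 markers and higher relative to Tdrd1 (0.23). The directions of Nanos3 and Elavl2 thus held for every marker in the list, whereas those of Nanos1, Lin28b and Lin28a depended on the marker taken. For Dazl (6 markers higher, 4 lower), Pum2 (5 and 5) and Dnd1 (4 and 6) the markers were divided. Nanos2 has no such value in the NRRA library with 0 counts.

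The genes whose levels over the 4 libraries were most like those of a given gene were found by Euclidean distance of log2 CPM among the other 20231 tested genes. Nearest to Nanos2 were Cd7 (157 and 191 counts in Veh, 0 and 1 in NRRA), a surface protein known from T cells, the antisense gene Gm45058, and Cd2 (77 and 75 in Veh, 1 and 3 in NRRA), another T cell surface protein. Nearest to Nanos3 were the peptidase inhibitor gene Pi15 (log2 fold change -4.22), the corepressor gene Skor1 (-3.92) and the forkhead factor gene Foxa2 (-3.86). Nanos3 itself had the lowest log2 fold change of these 4 genes. Nearest to Dazl were Psap (0.12), which encodes the lysosomal protein prosaposin, the alpha tubulin gene Tuba3b (0.11) and Nisch (0.08). Shared sequence was not checked for these neighbours, apart from the overlap of Gm45058 with Nanos2 given above. Reads of that pair cannot be assigned to either gene with certainty, so their closeness is a description only.

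The paralogs are genes of the same protein families. Of 8 paralogs 7 were tested, 3 were higher, 2 were lower and the median log2 fold change was 0.22. The share called was 71.4%, beside 56.4% of all tested genes, and 3 were lower with at least 20 counts in each library of a group or without Veh replicate 1. Elavl3, a Hu protein gene best known from neurons, rose from 73 and 57 counts to 602 and 641 (log2 fold change 3.12 ± 0.14, SE, edgeR adjusted p = 3.2e-16). Rbm46, which encodes a germ cell RNA-binding protein required for meiosis and is a relative of Dnd1, rose from 1146 and 1409 counts to 3363 and 2945 (1.16 ± 0.05, edgeR adjusted p = 1.4e-16). Rbm47, of the same group, fell from 76 and 100 counts to 22 and 24 (-2.07 ± 0.27, edgeR adjusted p = 3.0e-07). Boll, the DAZ family gene of later male germ cells, was higher (0.30 ± 0.07, edgeR adjusted p = 0.00093), and Elavl1 was lower (-0.19 ± 0.03, edgeR adjusted p = 3.2e-05). Elavl4 did not pass (0.22, edgeR adjusted p = 0.60), and A1cf had 0 counts in every library.

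The CCR4-NOT deadenylase, the effector that NANOS and PUM proteins recruit, was covered by 17 genes of the complex and its TOB and BTG adaptors, of which Btg4 was not tested. Of the 16 tested genes 4 were higher and 5 lower, a share of 56.2% called that was close to the 56.4% of all tested genes, and none moved by 2-fold. With library size in place of TMM, 7 were higher and 3 lower, and DESeq2 called 3 in each direction. The lowest was the adaptor Btg2 (-0.44 ± 0.05, SE, edgeR adjusted p = 1.2e-07) and the highest the adaptor Tob2 (0.43 ± 0.04, edgeR adjusted p = 3.5e-10). The median log2 fold change was -0.03, and 0.06 with library size in place of TMM.

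Of 15 genes for decapping and P-bodies, which degrade or store mRNAs after their tails are shortened, 6 were higher and 0 lower in edgeR's test, with a median log2 fold change of 0.03, which ranged from 0.014 without Veh replicate 1 to 0.055 without NRRA replicate 2. With library size in place of TMM, 9 were higher and the median was 0.11. The share called was 40.0%, against 56.4% of all tested genes (27.9% higher and 28.4% lower). The count of lower genes was also 0 at an unadjusted p under 0.05 and in DESeq2. The highest was Lsm14b (0.61 ± 0.04, SE, edgeR adjusted p = 1.2e-13), a translational repressor known from oocytes, and the lowest was the deadenylase gene Parn, which did not pass (-0.07, edgeR adjusted p = 0.24). Of 14 genes for cytoplasmic polyadenylation and poly(A) binding, 7 were higher, 4 were lower, and the median was 0.10 (2 lower and 0.19 with library size in place of TMM). That was 78.6% called, against 56.4% of all tested genes. The highest was Cpeb4 (0.68 ± 0.06, edgeR adjusted p = 5.0e-10), which binds polyadenylation elements, and the lowest was Pabpc1l, which did not pass (-0.28, edgeR adjusted p = 0.49). None of the genes of either list moved by 2-fold.

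The genes of the LIN28 and let-7 pathway mostly fell. Of 16 tested genes 12 were lower and 3 higher, with a median log2 fold change of -0.48, while 28.4% of all tested genes were lower. The lowest was Igf2bp1 (-1.14 ± 0.03, SE, edgeR adjusted p = 1.7e-22), an mRNA that let-7 represses, with 13437 and 14909 counts in Veh, against 7439 and 6779 in NRRA. The highest was Dis3l2 (0.75 ± 0.07, edgeR adjusted p = 2.1e-09), the exonuclease that degrades let-7 precursors bound by LIN28 and tailed with uridines, with 480 and 502 counts in Veh, against 945 and 872 in NRRA. The list includes both the machinery of microRNA maturation and known let-7 targets, and targets of this kind such as Igf2bp1 are also expressed in fibroblasts, whose markers were lower in NRRA. The part of the feeder cells in this count was not tested.

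The let-7 microRNAs themselves were not measured in these libraries of mRNA. Sequences are shown because the seed, bases 2 to 8 in capitals, was the same in all those read. Only the mature mouse 5p sequences named let-7a to let-7i in RefSeq (GRCm38.p6) were read, and other let-7 names were left out. Of these, 8 of 8 had the seed GAGGUAG, and a pair of them is printed.

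mmu-let-7a-5p: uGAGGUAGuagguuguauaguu
mmu-let-7g-5p: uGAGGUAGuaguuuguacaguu

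The first lies at chr13:48538239-48538260 on the minus strand, and the other at chr9:106178846-106178867 on the plus strand.

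Of 28 other RNA-binding protein genes with known roles in germ cells 27 were tested, 10 were higher and 11 lower. The median log2 fold change was -0.04 (0.05 with library size in place of TMM). Leaving out each library in turn gave medians from -0.071, without Veh replicate 2, to 0.0078, without Veh replicate 1. The share called was 77.8%, beside 56.4% over all tested genes. The highest was Ybx2 (1.40 ± 0.11, SE, edgeR adjusted p = 6.3e-11), a protein that stores mRNAs in male and female germ cells, with 141 and 173 counts in Veh, against 465 and 446 in NRRA. The lowest was Bicc1 (-1.13 ± 0.05, edgeR adjusted p = 9.8e-17), a translational regulator with KH domains, with 2228 and 2497 counts in Veh, against 1247 and 1138 in NRRA. The groups did not overlap for either gene. Changes of at least 2-fold numbered 4 among the 27 tested genes and made up 13.3% of all tested genes.

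**Figure D4:**
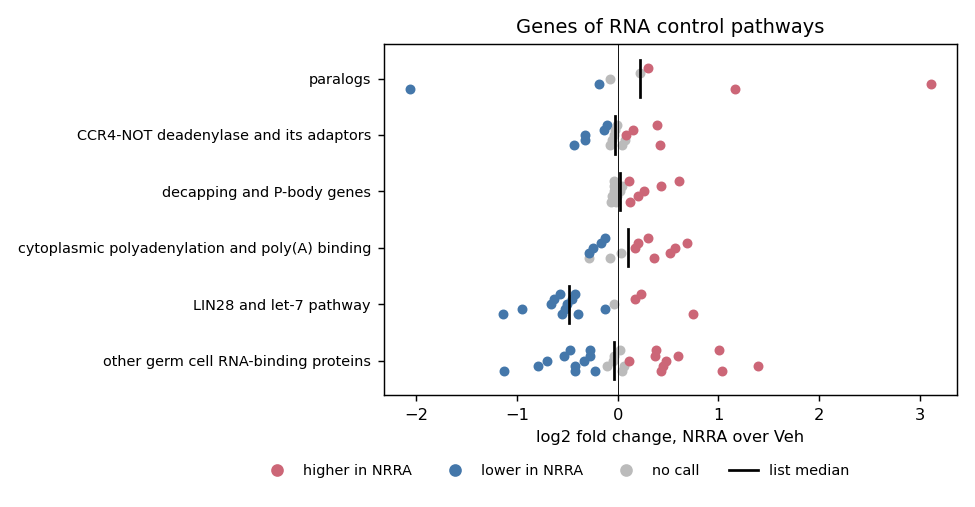
Log2 fold change (NRRA over Veh) of each tested gene in the 6 lists of paralogs and RNA control genes, coloured by call in edgeR's test at an adjusted p under 0.05, with a vertical line at each list's median. The LIN28 and let-7 list has its median at -0.48, while the other 5 medians lie between -0.04 and 0.22.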

How the data were processed

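Poly(A) RNA was sequenced in 4 libraries, 2 Veh and 2 NRRA, grouped by sample title. The authors deposited raw counts per gene: whole numbers, not normalized. The submitters' processing notes name bcl2fastq, STAR 2.6.1c, featureCounts 1.6.4 and the build mm10. The annotation release and strand setting are not given in the sources used here, so reads of overlapping genes may be misassigned. The labels name Illumina TruSeq and NuGEN preparations, whereas the study's methods describe a stranded oligo-dT kit from Tecan. The Veh columns carry the next higher number than the titles and were matched through the descriptions.

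Counts were filtered with filterByExpr, scaled with TMM and tested with edgeR 4.0.16 (R 4.3.3) by the quasi-likelihood test with robust estimation and Benjamini-Hochberg adjustment over 20232 genes (threshold 0.05). Log2 fold changes are NRRA over Veh. Log2 CPM used a prior count of 2, and the floor was 3 counts per library. The biological coefficient of variation was 2.61%. Alternatives were DESeq2 1.42.0, other scalings, other filters, a fit without robust estimation, the replicate number as a term, and leaving out each library. The script was tested on simulated data.

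Coordinates and exon lengths (the union of exons) are from GENCODE M21 (GRCm38), which held 99.7% of the identifiers. Near-identical stretches (at least 95% over 100 bases) were searched in the longest transcript of each gene with BLAST 2.17.0. Windows and microRNAs are from RefSeq.

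The genes and lists were chosen with earlier results of these data known. Named are the 9 genes, the paralogs (1 is not reported here), the highest and lowest tested gene of each list, Stra8, and the 3 tested genes nearest to Nanos2, Nanos3 and Dazl. Btg4 and the markers named beside depth and beside the germ cell ratios were added to these, and those ratios were chosen after the data had been seen. No column of the authors' own comparisons was used.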

Additional observations from a re-analysis of the deposited data

How the results depend on the processing

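The direction of each of the 9 genes was kept under all 11 alternatives. Of the 99 values, 86 also kept their side of the threshold and 13 were no longer called. DESeq2's Wald test called 2 genes higher, without Pum2 (0.084) and Dazl (0.16), and did not call Dnd1 (-0.092), all as log2 fold changes. Dazl was also not called with at least 20 counts in each library of a group (0.15). Dnd1 was not called with DESeq2 size factors (-0.092), library size only (-0.0039), no filter (-0.086) or no robust estimation (-0.094). Leaving out each library in turn gave -0.14 to -0.039 for Dnd1 and 0.043 to 0.12 for Pum2. For Nanos2 it gave -10.34 to -5.70, where the lowest came from the fit in which the NRRA library with 3 counts was left out. The other genes kept their calls in these fits, in which the lone library of a group was assumed to vary like the other group. In the CCR4-NOT list, library size only gave 7 higher and 3 lower, and DESeq2 gave 3 lower. With library size only, Pum2 (0.17), Dazl (0.25) and Lin28a (-0.13) kept their calls with values more than 1.5 times larger or smaller. In the polyadenylation list, library size only gave 2 lower. The cause of these differences was not tested.

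The replicate numbers were not shown to pair the libraries, since the replicate differences of Veh and NRRA correlated at -0.01 across genes. With the replicate number as a block, 4 of the 9 genes were higher and 5 lower, as without it, and over all genes 5772 were higher and 5836 lower. Of the paralogs, 3 were then lower in place of 2.

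Limits are the 2 libraries per group and the mixture with feeder cells. The study's reporting statement calls its sequencing replicates biologically independent, while the labels do not say whether these libraries came from separate cultures. The p-values measure the spread between these libraries. With 2 libraries against 2, an exact permutation test of NRRA against Veh cannot give a two-sided p below 0.333. Libraries of one group differed by more than sampling noise (chi-square per degree of freedom 2.45 in Veh and 1.99 in NRRA). At 0 and 3 counts of Nanos2 in NRRA, depth does not set a level.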
